A study of Mus musculus with 18 samples.

Results

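The 42 genes described here drive or carry out DNA replication and mitosis, and were chosen by name to read melanoma proliferation under treatment. No rule on their measured values was used, but earlier results of these data were known when they were chosen. They are 42 of 41079 genes in the expression table and comprise 24 genes of G2 phase and mitosis, 15 of S phase and 3 transcription factors of the cell cycle. All 42 had a mean of at least 1 FPKM (fragments scaled to gene length and to the fragments assigned to genes in the tumor) over the tumors and were among the 12357 genes tested. RNA from B16F10 tumors was sequenced in 18 tumors, 3 in each of 6 groups. B16F10 is a pigmented melanoma line of C57BL/6 mice, and its cells were placed under the flank skin of C57BL/6 females whose age is not given in the labels. Injections into the tumor began on day 6, at a volume of about 50 mm3, were repeated every 2 days, and tumors were taken 48 h after the last one.

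The PBS group received saline alone. Free PS473 received PS473, a Pistol ribozyme directed at the PD-L1 transcript, without a carrier, and PS473@CPs received the same ribozyme with cationic polymers. NKMOF-101-[Mn] received the empty manganese framework, M5@NKMOF-101-[Mn] the framework with a catalytically inactive ribozyme mutant, and PS473@NKMOF-101-[Mn] the framework with the active ribozyme. The sample titles of the last group read NKMOF-102 where the treatment text lists only NKMOF-101, and the name in the treatment text is used. All tumors came from 1 cell line, were bulk pieces and held host cells as well as melanoma cells. In such pieces fewer cells of a type and less RNA per cell cannot be told apart.

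Cells copy their DNA once in S phase and divide in mitosis. Cyclins E and A with their kinases and the E2F factors turn on the S phase genes, among them the MCM helicase, the sliding clamp PCNA and the enzymes that supply deoxynucleotides. Cyclin B with CDK1, the Aurora and Polo-like kinases, kinesins and the spindle checkpoint then carry the cell through division, and FOXM1 and B-MYB raise the transcripts of this later program. Because most of these transcripts are made only in cycling cells, their sum is widely read as a measure of proliferation, with Mki67 the best known single marker.

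Promoter sequences were examined to see whether the mitotic and S phase members share letters that the choice by name did not use. RefSeq promoters of build GRCm38.p6, from 250 bases before to 50 bases after a gene's start, were matched for 34 of the 42 members, which have 36 promoters. Aurkb, Kif20a, Tpx2, Ccna2, Ccne2, Mcm4, Gmnn and Foxm1 had no entry. The letters searched on both strands were TTTGAA (known as the cell cycle homology region of late cell cycle genes), TTTAAA (a variant of it), CCAAT (bound by NF-Y) and TTCCCGC (an E2F-like site). In the 4 promoters printed here no match overlaps another. TTTGAA was in promoters of 15 of 20 matched mitosis members (75%), of 1 of 12 matched S phase members (8.33%, Mcm2) and in 17.9% of all 32851 promoters. TTCCCGC was in 5 of 12 matched S phase members (41.7%; Cdc6, Cdt1, Mcm3, Mcm7 and Rrm1), in 0 of 20 matched mitosis members and in 4.6% of all promoters. CCAAT was in 17 of 20 mitosis members (85%) and 8 of 12 S phase members (66.7%), against 37.4% of all promoters. TTTAAA was in 6 of 20 (30%) and 3 of 12 (25%), against 13.2%. E2f1 and Mybl2 held none of the 4 motifs in this window. These matches describe the letters of the window and not a site in use.

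Of the promoters, 2 of mitosis members and 2 of S phase members are shown because they carry the contrast between the programs, with every match to the 4 motifs in capitals, on either strand. Plk1 (chr7:122159185-122159484, plus strand) and Cdk1 (chr10:69352863-69353162, minus strand) encode the Polo-like and cyclin-dependent kinases that start mitosis. Cdc6 (chr11:98907901-98908200, plus strand) and Mcm3 (chr1:20820263-20820562, minus strand) encode a loader and a subunit of the replicative helicase.
Plk1: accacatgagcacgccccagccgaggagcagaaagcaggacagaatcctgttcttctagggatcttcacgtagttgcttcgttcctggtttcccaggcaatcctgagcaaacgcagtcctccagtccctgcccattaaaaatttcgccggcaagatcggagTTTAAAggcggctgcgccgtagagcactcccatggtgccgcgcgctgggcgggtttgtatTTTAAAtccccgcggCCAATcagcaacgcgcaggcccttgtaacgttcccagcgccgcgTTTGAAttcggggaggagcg
Cdk1: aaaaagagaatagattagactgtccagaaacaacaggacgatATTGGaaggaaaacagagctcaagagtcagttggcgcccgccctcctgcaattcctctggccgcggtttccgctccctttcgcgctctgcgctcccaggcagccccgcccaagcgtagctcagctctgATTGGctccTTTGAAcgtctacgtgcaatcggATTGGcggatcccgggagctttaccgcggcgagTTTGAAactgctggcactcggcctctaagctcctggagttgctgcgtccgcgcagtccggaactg
Cdc6: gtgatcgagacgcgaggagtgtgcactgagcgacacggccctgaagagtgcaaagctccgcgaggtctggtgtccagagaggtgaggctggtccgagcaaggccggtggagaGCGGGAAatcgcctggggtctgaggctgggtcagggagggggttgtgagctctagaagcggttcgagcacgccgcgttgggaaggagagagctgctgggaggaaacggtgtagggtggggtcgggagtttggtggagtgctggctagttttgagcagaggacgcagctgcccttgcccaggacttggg
Mcm3: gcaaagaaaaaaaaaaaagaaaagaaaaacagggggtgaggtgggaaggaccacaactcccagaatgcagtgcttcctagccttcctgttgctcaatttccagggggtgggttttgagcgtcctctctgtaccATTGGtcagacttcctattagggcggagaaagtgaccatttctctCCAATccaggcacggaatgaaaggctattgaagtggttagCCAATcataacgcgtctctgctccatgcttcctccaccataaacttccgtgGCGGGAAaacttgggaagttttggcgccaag

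With the start of the gene counted as position 0, Plk1 held CCAAT at -14, TTTAAA at -89 and -29 and TTTGAA at 30. Cdk1 held TTTGAA at -71 and -15 and CCAAT, read on the other strand, at -208, -80 and -48. Over all mitosis members the median position of TTTGAA was -15, close to the start of the gene. Cdc6 held TTCCCGC on the other strand at -138, and Mcm3 held it at 19 together with 3 CCAAT matches at -117, -72 and -32.

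Most of the 42 genes were well expressed in all 18 tumors. The median of their mean levels was 34.3 FPKM, against 7.41 FPKM over all genes tested. The highest was Pcna, the sliding clamp of DNA polymerase, with a mean of 274.5 FPKM (rank 166 of 12357), and the lowest was Ccne2, one of the E cyclins, with 3.44 FPKM. From 17212000 to 28401000 fragments were assigned to genes in a tumor, a depth worked out from the spacing of low FPKM values, and the thinnest member value, for Ccne2, rested on about 238 fragments. Markers of melanocytes were all detected (14 of 14 tested), and their mean log2(FPKM + 1) lay between 6.24 and 6.87 over the 18 tumors. Other cells varied far more: the mean level of the skin epithelium markers ran from 0.24 to 5.53 on the same scale, of the stroma and vessel markers from 1.74 to 4.26 and of the leukocyte markers from 1.24 to 2.68.

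Over the tumors the cell cycle genes had a lower median ratio of highest to lowest FPKM than all genes tested, with an ordinary SD. The genes tested were not matched to the members in level, and their median level was lower (7.41 against 34.3 FPKM). The highest tumor exceeded the lowest by 1.28-fold for Cdc20, an activator of the anaphase-promoting complex, up to 1.93-fold for Cdc6, with a median of 1.53-fold. The range over 18 tumors stayed under 2-fold for 42 of 42 members and for 66.2% of all genes tested, whose median ratio was 1.72. The median SD over tumors was 0.17 on the log2 scale for the members and 0.18 for all genes tested. The share of genes tested with a smaller SD ran from 4.75% for Hmmr to 70% for Mybl2, and was 68.8% for Mki67. Mitosis members spanned a median of 1.42-fold, S phase members 1.59-fold and the transcription factors 1.67-fold. The mean log2(FPKM + 1) of all 42 lay between 4.93 and 5.32 over the 18 tumors.

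**Figure D1:**
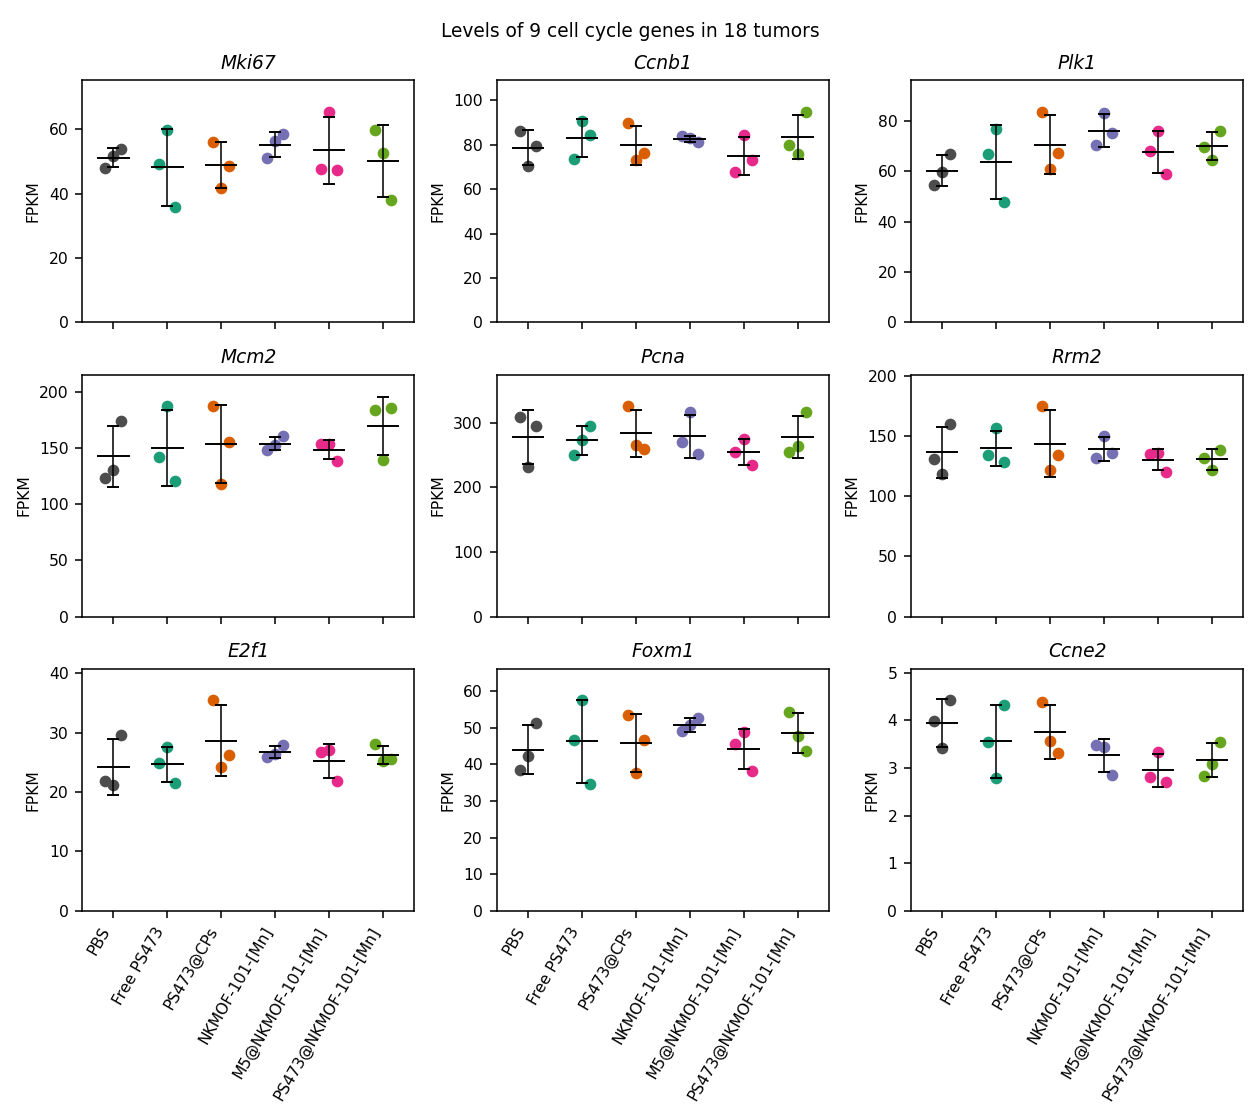
FPKM (y axes, from 0) of 9 cell cycle genes in the 6 groups (x axes); each point is 1 tumor, in label order, the bar is the mean of 3 tumors and the whiskers are 1 SD. In each panel the 6 groups lie at much the same height, and the tumors of 1 group often differ by more than the group means do: Mki67 means run from 48.2 to 55.2 FPKM while its Free PS473 tumors run from 35.8 to 59.7.

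The markers read most often for division showed groups of closely similar level. Mki67, which encodes the Ki-67 protein of cycling cells, was at 47.9, 51.6 and 53.9 FPKM in the PBS tumors, 49.1, 59.7 and 35.8 in the Free PS473 tumors and 56.1, 41.8 and 48.7 in the PS473@CPs tumors. The Mki67 level was 51.1, 56.2 and 58.4 FPKM with NKMOF-101-[Mn], 47.6, 65.4 and 47.2 with M5@NKMOF-101-[Mn] and 59.7, 52.7 and 37.9 with PS473@NKMOF-101-[Mn]. The highest and lowest tumors lay in different treated groups, M5@NKMOF-101-[Mn] and Free PS473, and the PBS tumors lay between them. Top2a, the topoisomerase that untangles sister chromatids, was at 81.1, 90.6 and 112 FPKM in the PBS tumors, 89.3, 109 and 74.0 in the Free PS473 tumors and 105, 79.7 and 96.4 in the PS473@CPs tumors. The Top2a level was 105, 104 and 108 FPKM with NKMOF-101-[Mn], 96.1, 116 and 90.9 with M5@NKMOF-101-[Mn] and 104, 102 and 96.6 with PS473@NKMOF-101-[Mn]. The lowest Top2a values, from 74.0 to 81.1 FPKM, were 1 tumor each of Free PS473, PS473@CPs and PBS.

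The kinases and cyclins that start mitosis were as even. Cdk1, the kinase of mitotic entry, was at 34.0, 24.8 and 29.6 FPKM in the PBS tumors, 29.5, 29.9 and 38.8 in the Free PS473 tumors and 36.7, 29.7 and 27.7 in the PS473@CPs tumors. The Cdk1 level was 33.5, 35.7 and 29.4 FPKM with NKMOF-101-[Mn], 30.0, 36.1 and 26.0 with M5@NKMOF-101-[Mn] and 27.7, 29.2 and 32.2 with PS473@NKMOF-101-[Mn]. All groups overlapped, with the highest tumor in Free PS473 and the lowest in PBS. Ccnb1, its B cyclin partner, was at 86.3, 70.6 and 79.5 FPKM in the PBS tumors, 73.8, 90.8 and 84.3 in the Free PS473 tumors and 89.8, 73.3 and 76.2 in the PS473@CPs tumors. The Ccnb1 level was 83.8, 82.9 and 81.1 FPKM with NKMOF-101-[Mn], 67.9, 84.5 and 73.0 with M5@NKMOF-101-[Mn] and 80.1, 75.7 and 94.9 with PS473@NKMOF-101-[Mn]. The 3 NKMOF-101-[Mn] tumors lay between 81.1 and 83.8 FPKM, and every other group straddled them. Ccna2, the A cyclin of S phase and G2, was at 54.6, 54.5 and 64.2 FPKM in the PBS tumors, 53.6, 63.3 and 49.5 in the Free PS473 tumors and 65.8, 56.1 and 59.0 in the PS473@CPs tumors. The Ccna2 level was 61.3, 68.9 and 61.7 FPKM with NKMOF-101-[Mn], 56.4, 65.6 and 56.9 with M5@NKMOF-101-[Mn] and 58.2, 58.0 and 68.0 with PS473@NKMOF-101-[Mn]. Free PS473 held both of the lowest Ccna2 tumors, and the other lay in the upper part of the range.

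Plk1, the Polo-like kinase whose promoter is shown above, was at 54.4, 59.6 and 67.1 FPKM in the PBS tumors, 66.9, 76.8 and 47.8 in the Free PS473 tumors and 83.7, 60.9 and 67.5 in the PS473@CPs tumors. The Plk1 level was 70.5, 83.1 and 75.2 FPKM with NKMOF-101-[Mn], 68.2, 76.0 and 59.2 with M5@NKMOF-101-[Mn] and 69.7, 64.7 and 75.9 with PS473@NKMOF-101-[Mn]. The NKMOF-101-[Mn] tumors all lay above the PBS tumors, while the highest and lowest Plk1 values belonged to PS473@CPs and Free PS473. Aurkb, the Aurora kinase of the chromosomal passenger complex, was at 40.8, 37.3 and 41.97 FPKM in the PBS tumors, 38.0, 44.9 and 40.5 in the Free PS473 tumors and 47.0, 34.5 and 38.0 in the PS473@CPs tumors. The Aurkb level was 41.0, 44.3 and 42.6 FPKM with NKMOF-101-[Mn], 38.8, 42.3 and 32.1 with M5@NKMOF-101-[Mn] and 44.1, 35.1 and 40.7 with PS473@NKMOF-101-[Mn]. Its lowest tumor was in M5@NKMOF-101-[Mn] and its highest in PS473@CPs. Birc5 (survivin), a partner of Aurkb in that complex, was at 23.2, 16.5 and 19.3 FPKM in the PBS tumors, 19.9, 21.8 and 23.9 in the Free PS473 tumors and 25.9, 20.7 and 20.3 in the PS473@CPs tumors. The Birc5 level was 21.6, 25.4 and 19.0 FPKM with NKMOF-101-[Mn], 21.1, 20.6 and 16.9 with M5@NKMOF-101-[Mn] and 19.8, 19.7 and 21.4 with PS473@NKMOF-101-[Mn]. The same PS473@CPs tumor was highest, and a PBS tumor was lowest.

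The S phase members varied somewhat more between tumors. Mcm2, a subunit of the replicative helicase, was at 124, 130.2 and 174 FPKM in the PBS tumors, 142, 187 and 121 in the Free PS473 tumors and 187, 118 and 155 in the PS473@CPs tumors. The Mcm2 level was 149, 152 and 161 FPKM with NKMOF-101-[Mn], 153, 154 and 139 with M5@NKMOF-101-[Mn] and 184, 139.6 and 186 with PS473@NKMOF-101-[Mn]. The 3 lowest values, 118.2 to 123.6 FPKM, came from PS473@CPs, Free PS473 and PBS, and the highest came from PS473@CPs as well. Mcm5, another subunit, was at 37.3, 36.9 and 46.8 FPKM in the PBS tumors, 40.3, 47.0 and 46.3 in the Free PS473 tumors and 56.6, 37.4 and 43.4 in the PS473@CPs tumors. The Mcm5 level was 45.6, 43.2 and 44.6 FPKM with NKMOF-101-[Mn], 43.7, 43.4 and 36.4 with M5@NKMOF-101-[Mn] and 45.9, 36.4 and 52.8 with PS473@NKMOF-101-[Mn]. PS473@CPs and PS473@NKMOF-101-[Mn] each held tumors both near the bottom and at the top. Pcna was at 309.7, 231 and 295 FPKM in the PBS tumors, 250.4, 273 and 295 in the Free PS473 tumors and 326, 266 and 260.2 in the PS473@CPs tumors. The Pcna level was 269.7, 316 and 252 FPKM with NKMOF-101-[Mn], 254, 275 and 234 with M5@NKMOF-101-[Mn] and 255, 263 and 316 with PS473@NKMOF-101-[Mn]. All groups overlapped in Pcna, the most abundant of the 42 transcripts.

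Rrm2, the regulated subunit of ribonucleotide reductase, was at 131, 118 and 159.5 FPKM in the PBS tumors, 134, 156 and 129 in the Free PS473 tumors and 175, 121 and 134 in the PS473@CPs tumors. The Rrm2 level was 131, 150.0 and 136 FPKM with NKMOF-101-[Mn], 135, 135 and 120.0 with M5@NKMOF-101-[Mn] and 132, 121 and 139 with PS473@NKMOF-101-[Mn]. Every PS473@NKMOF-101-[Mn] value and every M5@NKMOF-101-[Mn] value lay inside the PBS range. Cdc6, which loads the helicase onto origins, was at 6.53, 8.56 and 11.5 FPKM in the PBS tumors, 9.38, 10.4 and 6.39 in the Free PS473 tumors and 12.3, 8.40 and 8.31 in the PS473@CPs tumors. The Cdc6 level was 9.42, 9.30 and 8.54 FPKM with NKMOF-101-[Mn], 9.09, 8.11 and 7.04 with M5@NKMOF-101-[Mn] and 10.0, 8.24 and 9.27 with PS473@NKMOF-101-[Mn]. It had the widest range of the 42, and the PBS tumors alone covered most of it. Gmnn (geminin), the inhibitor of the helicase loader Cdt1, was at 18.0, 12.3 and 13.3 FPKM in the PBS tumors, 13.3, 12.4 and 17.4 in the Free PS473 tumors and 16.2, 14.3 and 13.5 in the PS473@CPs tumors. The Gmnn level was 14.1, 15.7 and 11.8 FPKM with NKMOF-101-[Mn], 12.9, 12.9 and 11.0 with M5@NKMOF-101-[Mn] and 12.3, 12.1 and 13.6 with PS473@NKMOF-101-[Mn]. The 2 highest values were a PBS tumor and a Free PS473 tumor, with 18.0 and 17.4 FPKM.

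The E cyclins, which open S phase, held the member with the largest share of its variance between groups. Ccne2 was at 3.99, 3.41 and 4.42 FPKM in the PBS tumors, 3.55, 2.80 and 4.31 in the Free PS473 tumors and 4.39, 3.56 and 3.32 in the PS473@CPs tumors. The Ccne2 level was 3.49, 3.44 and 2.85 FPKM with NKMOF-101-[Mn], 2.81, 3.33 and 2.69 with M5@NKMOF-101-[Mn] and 2.84, 3.09 and 3.55 with PS473@NKMOF-101-[Mn]. All 3 M5@NKMOF-101-[Mn] tumors lay below all 3 PBS tumors, and the other framework groups each overlapped PBS. Of the variance of log2 Ccne2, 41.8% lay between groups, the most of any member, and for Rrm1, the large subunit of ribonucleotide reductase, 8.94%, the least. The paralog Ccne1 was at 28.1, 27.0 and 34.3 FPKM in the PBS tumors, 29.9, 36.1 and 28.5 in the Free PS473 tumors and 39.2, 30.5 and 31.8 in the PS473@CPs tumors. The Ccne1 level was 27.3, 32.5 and 29.9 FPKM with NKMOF-101-[Mn], 32.7, 29.0 and 23.4 with M5@NKMOF-101-[Mn] and 30.4, 27.4 and 33.5 with PS473@NKMOF-101-[Mn]. Its groups all overlapped with PBS.

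The transcription factors followed the same tumors. E2f1, an activator of S phase genes, was at 21.8, 21.1 and 29.6 FPKM in the PBS tumors, 24.8, 27.5 and 21.6 in the Free PS473 tumors and 35.4, 24.3 and 26.3 in the PS473@CPs tumors. The E2f1 level was 25.9, 26.3 and 27.9 FPKM with NKMOF-101-[Mn], 26.7, 27.1 and 21.9 with M5@NKMOF-101-[Mn] and 28.0, 25.2 and 25.6 with PS473@NKMOF-101-[Mn]. PS473@CPs tumor 1 was the highest by a wide gap, and no group was apart from PBS. Foxm1, an activator of mitotic genes, was at 38.4, 42.4 and 51.2 FPKM in the PBS tumors, 46.5, 57.4 and 34.7 in the Free PS473 tumors and 53.4, 37.7 and 46.7 in the PS473@CPs tumors. The Foxm1 level was 49.0, 50.7 and 52.7 FPKM with NKMOF-101-[Mn], 45.5, 48.8 and 38.2 with M5@NKMOF-101-[Mn] and 54.3, 47.6 and 43.6 with PS473@NKMOF-101-[Mn]. Both the highest and the lowest Foxm1 tumors were in Free PS473. Mybl2 (B-MYB) was at 6.37, 6.74 and 9.86 FPKM in the PBS tumors, 9.43, 10.3 and 7.04 in the Free PS473 tumors and 11.9, 8.37 and 8.79 in the PS473@CPs tumors. The Mybl2 level was 9.18, 8.35 and 9.75 FPKM with NKMOF-101-[Mn], 6.94, 8.17 and 6.66 with M5@NKMOF-101-[Mn] and 9.19, 6.98 and 8.74 with PS473@NKMOF-101-[Mn]. PBS held both the lowest tumor and 1 near the top, and PS473@CPs tumor 1 was again the highest.

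Across all 6 groups, the limma F test found no member that differed. With Benjamini-Hochberg adjustment over 12357 genes, 0 of 42 members passed an adjusted p of 0.05 (background 0% of genes tested) and 0 passed the unadjusted one (background 1.99%). The smallest unadjusted p was 0.2005, for Ccne2, with an adjusted p of 0.9999. The median share of variance between groups was 20.2% for the members and 23.3% for all genes tested. Means of 3 tumors differ through the spread between tumors alone, so such a share, also the 41.8% of Ccne2, is not by itself a treatment effect. The members' median SD was 0.170 within groups and 0.167 over all tumors, on the log2 scale.

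The 9 pairwise comparisons asked whether any treatment, or the active ribozyme in the framework against each simpler form, moved the program. They are not independent, since 5 share the PBS tumors and 5 share the PS473@NKMOF-101-[Mn] tumors. Members also varied together between tumors, as given below, so counts of members above 0 are not counts of independent results. Of the 378 member tests, 0 passed limma's adjusted p of 0.05 (smallest 0.9597), and 1 had an unadjusted p under 0.05. None of the 12357 genes tested passed the adjusted threshold in any of the 9 comparisons, so a member count of 0 is no more than the background. The size of change that these tumors leave room for was small on this scale. All 378 of the 95% intervals lay within a 2-fold change in either direction, with bounds from 0.657-fold to 1.60-fold on the FPKM + 1 scale, and 371 of 378 lay within 1.5-fold. Adding 1 shrinks the fold change of low genes such as Ccne2. With 0.1 added instead, the bounds were -0.76 and 0.75 in log2, in place of -0.61 and 0.68. The largest estimate of any member was a log2 difference of 0.33. Standard errors ran from 0.085 to 0.193 with a median of 0.14 on the log2 scale.

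**Figure D2:**
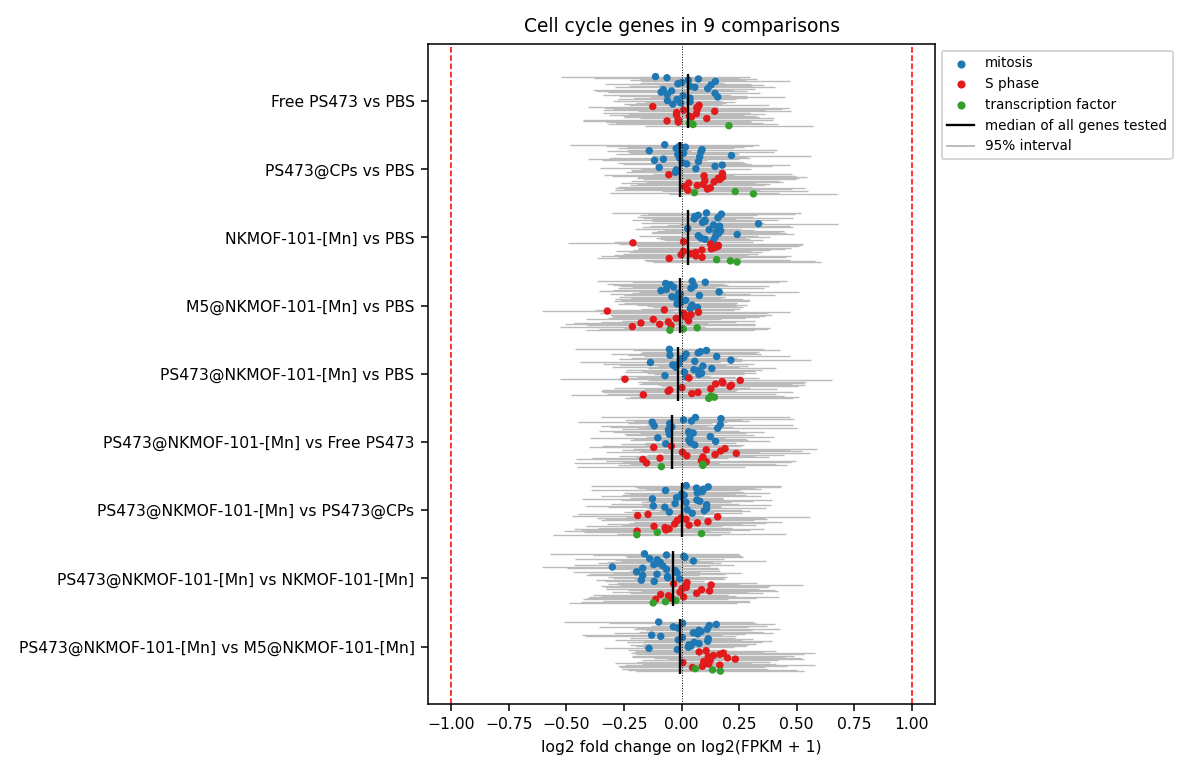
Log2 fold change on log2(FPKM + 1) (x axis) of the 42 genes in each of 9 comparisons (y axis, first group minus second); points are single genes coloured by list, grey lines are 95% intervals from limma, the black bar is the median of all 12357 genes tested and red dashed lines mark a 2-fold change. All 378 intervals stay inside the dashed lines, and most points lie close to the bar.

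Free PS473 against PBS had 0 of 42 members past the adjusted test and 0 at the unadjusted p (background 1.81% of genes). The estimate was above 0 in 25 of 42, against 59.5% of all genes, and the median was 0.03 for both the members and all genes. The smallest p values belonged to Kif20a, a kinesin of cytokinesis (log2 0.15, SE 0.091, limma adjusted p = 0.9998), and to Mybl2 (log2 0.21). Birc5 (log2 0.16) followed Mybl2 among the higher estimates, and Ccne2 (log2 -0.12) and Mki67 (log2 -0.11) had the lowest. No member had all 3 Free PS473 tumors outside the PBS range on 1 side (background 4.91%).

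PS473@CPs against PBS had 0 of 42 members past the adjusted test and 0 at the unadjusted p (background 2.09%). Of the estimates, 29 of 42 were above 0, against 47.3% of all genes, with medians of 0.06 and -0.01. Among S phase members 14 of 15 were above 0 (median 0.10), and among mitosis members 12 of 24 (median -0.002). Mybl2 had the largest estimate (log2 0.31, SE 0.17, 95% interval -0.05 to 0.68, adjusted p = 0.9998), then E2f1 (log2 0.23). Bub1, a spindle checkpoint kinase (log2 -0.14), and Kif11, the kinesin that separates spindle poles (log2 -0.12), had the lowest. Without PS473@CPs tumor 1 the member median was -0.04, so the sign of the median rested on that tumor. Ranges did not separate for any member (background 5.11%).

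NKMOF-101-[Mn] against PBS had 0 of 42 members past the adjusted test and 0 at the unadjusted p (background 1.46%). Its estimates leaned 1 way, above 0 in 39 of 42 members against 58.8% of all genes, with medians of 0.11 and 0.03. All 24 mitosis members had an estimate above 0 (median 0.13) and 12 of 15 S phase members did (median 0.06). The mean log2(FPKM + 1) of the mitosis members was 5.06 to 5.17 in the NKMOF-101-[Mn] tumors and 4.91 to 5.04 in the PBS tumors. Plk1 had the largest estimate (log2 0.33, SE 0.16, 95% interval -0.01 to 0.68, adjusted p = 1), and Ube2c, the ubiquitin-conjugating enzyme of the anaphase-promoting complex, the smallest p (log2 0.24, SE 0.11). Ccne2 (log2 -0.21) and Gmnn (log2 -0.05) had the lowest estimates. In 4 of 42 members, Plk1, Cdc20, Cenpe and Cenpf, the framework tumors all lay above the PBS tumors (background 6.02% of genes apart in either direction). Leukocyte markers moved with this lean: 18 of 20 tested (32 listed) had an estimate above 0, with a median of 0.64, and their mean log2(FPKM + 1) was 2.18 to 2.64 in the NKMOF-101-[Mn] tumors and 1.75 to 2.48 in the PBS tumors. Skin epithelium markers were above 0 in 1 of 22 tested (27 listed), with a median of -1.59 and mean levels of 0.24 to 4.48 and 0.27 to 5.15, and Krt14, a basal keratin, was listed at 0 in 1 tumor of each group. Stroma and vessel markers were above 0 in 11 of 14 tested (median 0.31). Of cell content, only the skin epithelium and melanocyte levels were tried as covariates, and the part of the leukocyte and stroma markers was not tested. With the melanocyte covariate 24 of 24 mitosis members were above 0 (median 0.13). Under upper-quartile scaling, gene length adjustment or a skin epithelium covariate, 23 of 24 mitosis members were above 0, and without PBS tumor 2 the number was 20 of 24, with a median of 0.10.

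M5@NKMOF-101-[Mn] against PBS had 0 of 42 members past the adjusted test and 1 at the unadjusted p (background 1.51%). That 1 was Ccne2, at a mean of 2.95 FPKM against 3.94 (log2 -0.32, SE 0.13, 95% interval -0.61 to -0.04, adjusted p = 0.9994), lower in 3 of 3 tumors. It was also the 1 member with separate ranges (background 8.11%). An estimate above 0 was found in 19 of 42 against 47.7% of all genes, and the medians were -0.004 and -0.007. Gmnn (log2 -0.21) was next lowest, and Plk1 (log2 0.16) and Top2a (log2 0.10) were highest. Melanocyte markers were above 0 in 11 of 14 (median 0.22) and leukocyte markers in 16 of 20 tested (median 0.44). Skin epithelium markers were above 0 in 1 of 22 tested (median -2.51) and stroma and vessel markers in 0 of 14 (median -0.78). With the skin epithelium covariate the member median was -0.07. The part of the leukocyte and stroma markers was not tested.

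PS473@NKMOF-101-[Mn] against PBS, the full formulation against the vehicle, had 0 of 42 members past the adjusted test and 0 at the unadjusted p (background 2.1%). Above 0 were 30 of 42 estimates against 46.4% of all genes, with medians of 0.06 and -0.01. Mcm2 was at a mean of 169.7 FPKM against 142.5 (log2 0.26, SE 0.19, 95% interval -0.14 to 0.65, adjusted p = 0.9934). Mcm6 (log2 0.22) and Mcm7 (log2 0.21), of the same helicase, stood beside it. Ccne2 (log2 -0.25) and Gmnn (log2 -0.17) were lowest. Ccne2 also had the smallest p of this comparison, and no member had separate ranges (background 4.66%). Skin epithelium markers were above 0 in 2 of 22 tested (median -2.25), with mean log2(FPKM + 1) of 0.25 to 3.12 and 0.27 to 5.15, and stroma and vessel markers in 0 of 14 (median -0.63), with 2.11 to 2.73 and 2.05 to 3.73. With the skin epithelium level as a covariate, the member median was 0.007 in place of 0.06. Melanocyte markers were above 0 in 11 of 14 (median 0.19) and leukocyte markers in 9 of 20 tested (median -0.007). The part of the stroma and leukocyte markers was not tested.

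Against Free PS473, the same ribozyme without a carrier, PS473@NKMOF-101-[Mn] had 0 of 42 members past the adjusted test and 0 at the unadjusted p, where 4.98% of all genes passed the latter. Estimates were above 0 in 27 of 42 members and in 38.5% of all genes, with medians of 0.04 and -0.04. Mcm6 (log2 0.24, SE 0.15, adjusted p = 0.9597), Mcm2 (log2 0.19) and Ccna2 (log2 0.15) were higher in estimate. Tyms, the thymidylate synthase (log2 -0.17), and Gmnn (log2 -0.15) were lower. In this comparison melanocyte markers were above 0 in 12 of 14 (median 0.29; mean levels 6.68 to 6.78 against 6.24 to 6.81). With the melanocyte level as a covariate, the member median was -0.02 in place of 0.04. Against PS473@CPs, the same ribozyme with polymers, 0 and 0 of 42 passed (background 0% and 2.29%), with 22 of 42 above 0 against 50.3% of all genes and a median of 0.01. Mcm2 (log2 0.16) and Top2a (log2 0.12) were highest, and Mybl2 (log2 -0.19), Gmnn (log2 -0.19) and Ccne2 (log2 -0.19) lowest. That median was -0.08 without PS473@CPs tumor 2 and 0.11 without PS473@CPs tumor 1. Skin epithelium markers were above 0 there in 1 of 22 tested (median -1.28) and stroma and vessel markers in 0 of 14 (median -0.87). Melanocyte markers were above 0 in 11 of 14 (median 0.27) and leukocyte markers in 2 of 20 (median -0.18). The part of the stroma and leukocyte markers was not tested. Ranges separated for no member in either comparison (background 6.82% and 4.12%).

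Against the empty framework, PS473@NKMOF-101-[Mn] had 0 of 42 members past the adjusted test and 0 at the unadjusted p (background 2.3%). Estimates were above 0 in 12 of 42 against 38.3% of all genes, with medians of -0.06 and -0.04, and above 0 in 3 of 24 mitosis members (median -0.09) and 9 of 15 S phase members (median 0.01). Cenpe, a kinetochore kinesin with the smallest p, was at a mean of 9.21 FPKM against 11.4 (log2 -0.30, SE 0.14, 95% interval -0.60 to 0.004, adjusted p = 0.9995). That estimate rested on PS473@NKMOF-101-[Mn] tumor 3, at 6.60 FPKM beside 9.99 and 11.0, and was -0.10 without it. Cenpe has a length of 7813 bases, and genes over 5000 bases lay low in that tumor, as given below. In the same comparison leukocyte markers were above 0 in 2 of 20 tested (median -0.78; mean levels 1.69 to 2.38 against 2.18 to 2.64) and stroma and vessel markers in 0 of 14 (median -1.02; 2.11 to 2.73 against 2.59 to 3.94), and their part in the mitosis medians was not tested. Ranges separated for no member (background 7.91%). Kif23 (log2 -0.20) and Anln (log2 -0.17), both of cytokinesis, followed, while Mcm2 (log2 0.13) and Mcm7 (log2 0.12) were highest. Against the framework with the inactive ribozyme, where the formulations differ in the ribozyme but the pieces also differed in cell content, 0 and 0 of 42 passed (background 0% and 0.591%). Estimates were above 0 in 34 of 42 against 46.7% of all genes, with medians of 0.08 and -0.01, and in 15 of 15 S phase members (median 0.12). Mcm7 led (log2 0.23, SE 0.14, 95% interval -0.06 to 0.53, adjusted p = 1), followed by Mcm6 (log2 0.20), and Anln (log2 -0.14) and Cenpe (log2 -0.13, and 0.07 without PS473@NKMOF-101-[Mn] tumor 3) were lowest. Leukocyte markers were above 0 in 0 of 20 tested (median -0.45; mean levels 1.69 to 2.38 against 1.94 to 2.39) and stroma and vessel markers in 13 of 14 (median 0.13; 2.11 to 2.73 against 1.83 to 2.37), and their part was not tested. Kif20a was the 1 member whose ranges separated (background 4.48%). Without M5@NKMOF-101-[Mn] tumor 3 the S phase members above 0 numbered 11 of 15 (median 0.07), and without PS473@NKMOF-101-[Mn] tumor 3 they numbered 12 of 15 (median 0.06).

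**Figure D3:**
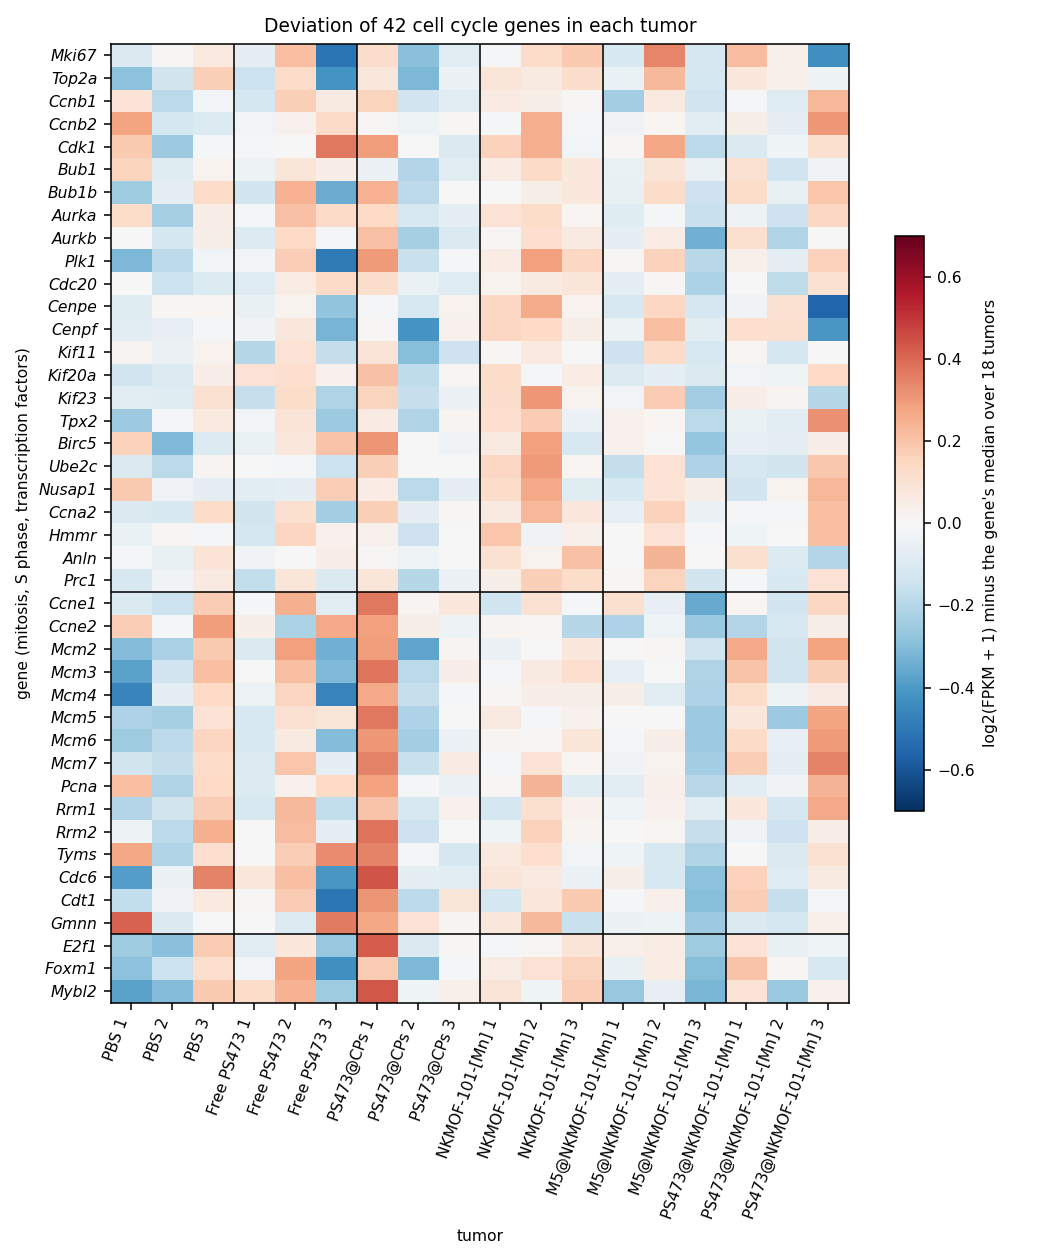
Deviation of log2(FPKM + 1) from the median of each gene over 18 tumors (colour scale, red above and blue below) for 42 cell cycle genes (rows, mitosis above, S phase in the middle, transcription factors below) in each tumor (columns, groups divided by black lines). The columns differ within groups: PS473@CPs tumor 1 is red over nearly all S phase rows, and Free PS473 tumor 3, PBS tumor 1 and M5@NKMOF-101-[Mn] tumor 3 carry many of the darkest blue cells.

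The members varied together from tumor to tumor, within groups as well as over all tumors. The median Pearson correlation between pairs of members over the 18 tumors was 0.46 (861 pairs, 86.8% above 0), and 0.51 after the group means were taken out, against 0.02 over all pairs of genes tested. It was 0.67 among S phase members, 0.43 among mitosis members and 0.41 between the lists. These are descriptions over 18 tumors, and genes measured in the same library share its depth and its length profile. PS473@CPs tumor 1 was the highest of the 18 tumors in 17 of 42 members. The lowest value was in Free PS473 tumor 3 for 11 members, in M5@NKMOF-101-[Mn] tumor 3 for 9, in PS473@CPs tumor 2 for 8 and in PBS tumor 2 for 7.

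Part of this spread ran alongside a difference between libraries in how values changed with gene length. In 3 tumors, Free PS473 tumor 3, PS473@CPs tumor 2 and PBS tumor 1, the values fell with gene length, by 0.25, 0.21 and 0.18 on the log2 scale for each 10-fold of length, while the other 15 lay between -0.07 and 0.13. They hold the 3 lowest Mcm2 and the 3 lowest Top2a values, and are the lowest tumor for 22 of 42 members. Gmnn ran the other way, with its highest values in PBS tumor 1 and Free PS473 tumor 3. It was not alone: Pearson's r of log2(FPKM + 1) with the slope was -0.77 for Gmnn, -0.62 for Ccne2 and -0.53 for Cdk1. For Mcm2 and Top2a r was 0.67 and 0.64. The sign did not always follow a member's own length, with r 0.55 for Plk1 (2214 bases) and -0.49 for Tyms (11114 bases). Mcm2 and Gmnn have lengths of 3371 and 2773 bases. Adjusting each tumor for gene length lowered the SD over tumors in 35 of 42 members, from a median of 0.17 to 0.15 on the log2 scale. The part of the length profile in each member's spread was not tested further. Without these 3 tumors, 0 members passed the adjusted test and all 378 intervals again lay within a 2-fold change. A slope does not show a bend. PS473@NKMOF-101-[Mn] tumor 3, with the highest slope (0.13), had median deviations of -0.18 for genes under 1000 bases and -0.14 for genes over 5000 bases. Its low values included long members, Mki67, Cenpe, Cenpf and Anln, but Hmmr (6555 bases) was highest there. The part of this profile in those values was not tested.

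**Figure D4:**
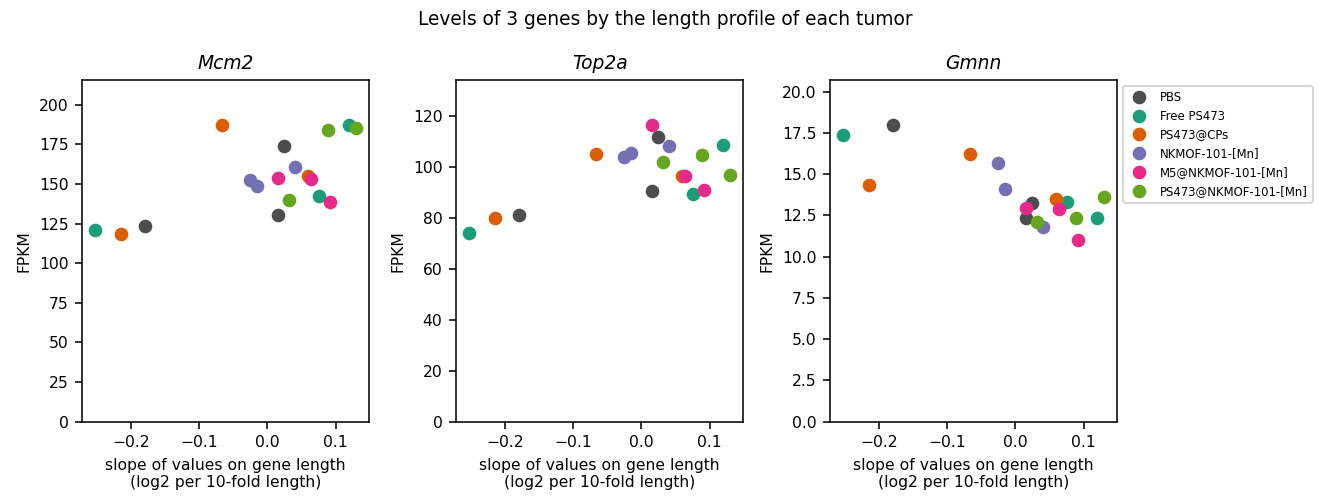
FPKM (y axes, from 0) of Mcm2, Top2a and Gmnn in the 18 tumors against the slope of each tumor's values on gene length (x axes, log2 per 10-fold length); points are single tumors coloured by group. The 3 tumors at slopes of -0.25, -0.21 and -0.18, from 3 different groups, lie at the bottom for Mcm2 and Top2a and in the upper part for Gmnn.

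Mki67 was also compared with the cell content of the pieces, over 18 tumors and 4 marker lists. Pearson's r was 0.21 with melanocyte markers (permutation p = 0.397; Spearman's rho 0.0031, permutation p = 0.994). With leukocyte markers r was -0.22 (permutation p = 0.384; rho -0.25, permutation p = 0.314). For skin epithelium markers r was -0.31 (permutation p = 0.215; rho -0.37, permutation p = 0.127) and for stroma and vessel markers -0.29 (permutation p = 0.236; rho -0.20, permutation p = 0.432). Adjusted over the 4 relations, the p was 0.397 for each r, and 0.994, 0.576, 0.510 and 0.576 for the rho values in the order given. Without the 2 tumors farthest from the median of each list, r was 0.044, -0.14, -0.24 and -0.20, and within groups 0.19, -0.45, -0.39 and -0.44. No relation passed its test.

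Wider lists of the same pathway also held no called gene. None of 60 other mitosis genes, 50 other replication genes, 25 tested genes of the G1 cyclins, kinases and Rb family or 11 tested inhibitors passed the adjusted test in any comparison. At an unadjusted p under 0.05, over the 9 comparisons, the other mitosis genes had 5 higher and 4 lower results in 540 tests (Smc4, Smc2, Kif22, Racgap1, Depdc1a and Tacc3) and the other replication genes 1 lower in 450 (Orc1). The G1 list had 4 higher in 225 (Rbl2 and Tfdp2) and the inhibitors 1 lower in 99 (Ccng1). These are 1.67%, 0.222%, 1.78% and 1.01% of the tests of each list, each below the 2.13% of all genes at that threshold over the 9 comparisons (0.591% to 4.98% in single comparisons). The pooled share did not hold in each comparison. In NKMOF-101-[Mn] against PBS, 4 of 60 other mitosis genes (Kif22, Racgap1, Smc2 and Depdc1a) were higher and 0 were lower. There 1.46% of all genes passed, and 54 of 60 estimates were above 0 (median 0.11). Ccng1, a p53 target, was at 30.9 ± 5.32 FPKM in PS473@NKMOF-101-[Mn] and 42.4 ± 8.71 in Free PS473 (SD, n = 3; limma log2 -0.44, adjusted p = 0.9463).

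Of the G1 genes, Cdk4, the kinase that phosphorylates the retinoblastoma protein, had group means from 236.8 to 259.9 FPKM, and its cyclin partner Ccnd1 from 18.2 to 21.3. Rb1 itself ran from 3.57 to 4.66 FPKM. The repressors of E2F targets, E2f7 and E2f8, had group means of 1.90 to 2.58 and 9.39 to 11.2 FPKM. Of the inhibitors, Cdkn1b (p27) had group means from 39.3 to 55.1 FPKM, and Cdkn2a was at most 0.744 FPKM in every tumor, listed at 0 in 2, and was not tested. Cdkn1a (p21), the inhibitor induced by p53, was at 87.0 ± 35.2 FPKM in Free PS473 and 54.6 ± 11.3 in PS473@NKMOF-101-[Mn] (SD, n = 3; limma log2 -0.59, adjusted p = 0.9597), with 46.5 to 109.5 FPKM among the Free PS473 tumors alone. Inhibitors spanned a median of 2.26-fold over the 18 tumors, against 1.53-fold for the 42 members.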

How the data were processed

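Poly(A) RNA of 18 tumors was sequenced, and the authors deposited FPKM values for 41079 genes with 1 length for each gene. The genome build GRCm39 comes from the submitters' processing notes, and the aligner, the counter and the annotation are not given in the sources used here. Depth per tumor (17212000 to 28401000 assigned fragments) was worked out from the spacing of low FPKM values, with the commonest step taken as 1 fragment. Within a tolerance of 0.02 fragment, 49.3% to 53.4% of low values were whole fragments and 98.2% to 99.2% were multiples of 0.25 fragment, so no count test was run. That depth leaves a counting error under the spread between tumors for every member. FPKM are shares of a library, so a change in total RNA is not seen, and reads shared with pseudogenes or overlapping genes may have been split in ways that are not known here.

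Genes averaging 1 FPKM or more (12357) entered a limma 3.58.1 fit in R 4.3.3 on the log2(FPKM + 1) scale, with 6 group means over all 18 tumors, 1 shared estimate of spread and a variance trend. Comparisons were each of 5 groups against PBS and PS473@NKMOF-101-[Mn] against the other 4, plus an F test over the 6 groups, each adjusted by Benjamini-Hochberg over all 12357 genes and called at 0.05. Groups came from the sample records, and replicates are separate tumors by their titles. The labels do not tie each tumor to its own mouse, so p-values measure the spread between these samples. No tumor column was left out, and 0 pairs of tumors held identical values. Of 45 pairs of tumors that share a replicate number, 18 correlated above 0.1 in their deviations from the group means (from -0.73 to 0.724). All 10 replicate 1 pairs outside NKMOF-101-[Mn] did (0.149 to 0.655), but not every pair, so the number was not used as a block. Replicate 1 pairs with NKMOF-101-[Mn] ran from -0.73 to -0.43. The mean skin epithelium level was 4.48 in NKMOF-101-[Mn] tumor 1 and 0.24 to 0.27 in tumor 1 of the other groups. Its part in these correlations was not tested. The fit was tested on simulated data. Summaries and figures used Python 3.11.15 with numpy 2.4.6, pandas 2.3.3, scipy 1.17.1 and matplotlib 3.10.9, and correlations used 100000 permutations, two-sided.

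The members and lists were chosen with earlier results of these data known. Values of 19 members were named by rule, and in each comparison the 2 members of smallest p and the 2 of largest change in each direction. From the other cell cycle lists Ccnd1, Cdk4, Rb1, E2f7, E2f8, Cdkn1a, Cdkn1b and Cdkn2a were named, and any gene called. Genes with an unadjusted p under 0.05 and members with separate ranges were named after their values were seen. Promoters came from RefSeq (GRCm38.p6), a build other than that of the FPKM table, and were joined by gene name alone. Alternatives were another pseudocount (0.1), other filters, quantile and upper-quartile scaling, no trend, the replicate block, the compared groups alone, skin epithelium or melanocyte covariates and leaving out each tumor. Adjustment for gene length and leaving out 3 tumors together were added after seeing the data.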

Additional observations from a re-analysis of the deposited data

How the results depend on the processing

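No member was called at an adjusted p of 0.05 in any of 191 alternative results, each 1 comparison or the F test under 1 setting. The smallest adjusted p of limma among them was 0.5747. The 162 alternative member medians each stayed within 0.1159 of the reported median, the SD of the member score between tumors of 1 group. That bound exceeds every reported median (largest 0.11), so it does not show that a median kept its sign. In 29 of 191 alternatives the number of members at an unadjusted p under 0.05 differed from that reported, and the highest was 3, for NKMOF-101-[Mn] against PBS without PBS tumor 3. The 95% intervals of all 378 member tests stayed within a 2-fold change under each other setting, and all 2268 did when 1 tumor was left out, with bounds from -0.74 to 0.85 on the log2 scale. The replicate number as a block left 0 members called, with 2 unadjusted results in place of 1 over the 9 comparisons and bounds from -0.62 to 0.70. Adjusting for gene length gave 3 unadjusted results and 0 calls. With 1 tumor left out, the member median kept its sign in NKMOF-101-[Mn] against PBS (0.08 to 0.17) and in PS473@NKMOF-101-[Mn] against PBS (0.02 to 0.11), NKMOF-101-[Mn] (-0.10 to -0.01) and M5@NKMOF-101-[Mn] (0.01 to 0.14). It changed sign with the tumors left out in Free PS473 against PBS (-0.03 to 0.09), PS473@CPs against PBS (-0.04 to 0.11), M5@NKMOF-101-[Mn] against PBS (-0.07 to 0.06), and PS473@NKMOF-101-[Mn] against Free PS473 (-0.01 to 0.09) and PS473@CPs (-0.08 to 0.11). With the skin epithelium covariate the member median fell from 0.06 to 0.007 in PS473@NKMOF-101-[Mn] against PBS and turned from 0.03 to -0.05 in Free PS473 against PBS. The melanocyte covariate turned it from 0.04 to -0.02 in PS473@NKMOF-101-[Mn] against Free PS473. Of the 41 estimates named by rule in the comparisons, 5 changed sign when 1 tumor was left out: Mki67 in Free PS473 against PBS (0.08 without Free PS473 tumor 3), Gmnn in NKMOF-101-[Mn] against PBS (0.10 without PBS tumor 1), Top2a in M5@NKMOF-101-[Mn] against PBS (-0.001 without M5@NKMOF-101-[Mn] tumor 2), Mcm2 in PS473@NKMOF-101-[Mn] against PS473@CPs (-0.02 without PS473@CPs tumor 2) and Cenpe (0.07), as given above, between the frameworks with active and inactive ribozyme. The 95% intervals reached a median of 0.29 to either side of the estimate on the log2 scale.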
